A study of Mus musculus with 2 samples.

Results

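A set of 9 methyltransferase genes of mouse E14.1 embryonic stem cells is described here: Gamt, Gnmt, Nnmt, Pemt, Tpmt, Hnmt, As3mt, Icmt and Pcmt1. They were chosen by name, as enzymes that pass the methyl group of S-adenosylmethionine to small molecules or to protein ends rather than to chromatin or RNA, and all 9 were found among the 25749 genes measured. Messenger RNA was sequenced from E14.1 cells with wild-type AHCY (WT) and from E14.1 cells with T136A AHCY, in which alanine replaces a threonine, with 1 library per genotype. How the T136A cells were made, whether they are 1 clone, and how the cells were cultured is not stated in the labels. No spread between replicates could be measured, so "higher" and "lower" compare 2 libraries and not the genotypes.

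Each of these enzymes uses S-adenosylmethionine and releases S-adenosylhomocysteine. That product inhibits most methyltransferases, and AHCY removes it by splitting it into adenosine and homocysteine. Several of the 9 genes are best known from the liver: Gnmt, Gamt and Pemt are thought to be the largest users of methyl groups there. Icmt and Pcmt1 act on proteins and are found in most cell types.

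Levels are RPKM, in which the reads of a gene are divided by its exon length and by the size of the library. The values imply totals of 17506154 reads for WT and 18396840 for T136A. From these totals and the gene lengths whole reads were recovered for 8 of the 9 genes. Printed folds are plain ratios of RPKM, and their 95% intervals (exact conditional binomial, Clopper-Pearson) cover counting error only, since reads without molecular identifiers are not independent molecules. Log2 ratios compare T136A with WT after 1 RPKM was added to each value, which makes differences at low levels look smaller. A gene was called at least 2-fold apart on that scale if it also reached 1 RPKM in at least 1 library.

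The upstream sequences of the 3 genes with the lowest and the highest ratios are shown first, so that they can be set beside the levels. As3mt had the lowest ratio, and Gnmt and Gamt the highest among the genes that reached 1 RPKM. The bases are those before the RefSeq start site (GRCm38.p6), 5′ to 3′ on the gene's strand, with every CpG dinucleotide in capitals. For Gnmt the last bases were left out because another annotation places them in its first exon.
As3mt, chr19:46707208-46707457, plus strand: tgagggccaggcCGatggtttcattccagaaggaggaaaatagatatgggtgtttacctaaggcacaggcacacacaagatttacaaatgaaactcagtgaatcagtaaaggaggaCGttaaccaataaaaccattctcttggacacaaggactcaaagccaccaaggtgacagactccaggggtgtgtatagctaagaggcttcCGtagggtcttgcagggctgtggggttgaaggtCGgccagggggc
Gamt, chr10:80261013-80261262, minus strand: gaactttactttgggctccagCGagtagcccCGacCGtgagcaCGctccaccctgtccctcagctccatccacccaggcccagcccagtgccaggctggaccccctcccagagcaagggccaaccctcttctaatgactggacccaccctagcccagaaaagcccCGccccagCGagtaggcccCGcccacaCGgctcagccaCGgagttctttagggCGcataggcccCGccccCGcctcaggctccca
Gnmt, chr17:46729169-46729415, minus strand: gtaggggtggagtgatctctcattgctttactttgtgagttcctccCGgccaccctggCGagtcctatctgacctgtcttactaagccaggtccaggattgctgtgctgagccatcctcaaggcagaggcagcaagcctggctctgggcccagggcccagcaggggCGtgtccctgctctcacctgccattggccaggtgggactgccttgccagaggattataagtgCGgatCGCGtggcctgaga

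In these 250 bases As3mt holds 4 CpG and Gamt 12, and the 247 bases of Gnmt hold 6. Over all 32851 RefSeq windows of 250 bases the median was 6 CpG, with percentile 25 at 2 and percentile 75 at 16. Of the 9 genes 8 had an entry, with 10 windows in all; Nnmt had none. CpG were densest before Icmt (40 CpG) and the outer start site of Pcmt1 (37 CpG), followed by Tpmt (19 CpG). They were sparse before Hnmt (2 CpG) and the 2 start sites of Pemt (1 and 2 CpG). In GENCODE M21 the windows of Icmt, Tpmt and Hnmt hold exon bases of their own gene. The outer Pcmt1 window holds exon bases of Lats1, and both Pemt windows lie inside the annotated gene. As3mt, the most abundant of the 9 transcripts, therefore lies behind a window with fewer CpG than the median. The E-box CACGTG and the sequence TGATGNAA, a form bound by ATF4, were searched on both strands in the same windows. Neither was present in any of the 10 windows, while 6.02% and 3.45% of all windows hold them.

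As3mt transcripts were the most abundant of the 9 in both libraries and had the largest difference in RPKM between them, though not the largest fold, which Gnmt had among the 7 genes that reached 1 RPKM. As3mt (ENSMUSG00000003559; GRCm38 chromosome 19, 46707458 to 46741099, plus strand) adds methyl groups to trivalent arsenic. It stood at 19.7 RPKM in WT against 12.04 RPKM in T136A. The WT library was thus 1.64-fold higher, with an interval of 1.44 to 1.87. Its values did not give whole reads with the length of 3212 bases in GENCODE M21. The smallest pair of whole reads that its values allow is 605 in WT and 388 in T136A, at a length of 1751 bases, and the interval rests on that pair. In such bulk samples fewer cells that express a gene and less of its RNA per cell cannot be told apart. The log2 ratio of As3mt was -0.67, and 8.60% of the 12320 genes at or above 1 RPKM had a lower one.

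**Figure D1:**
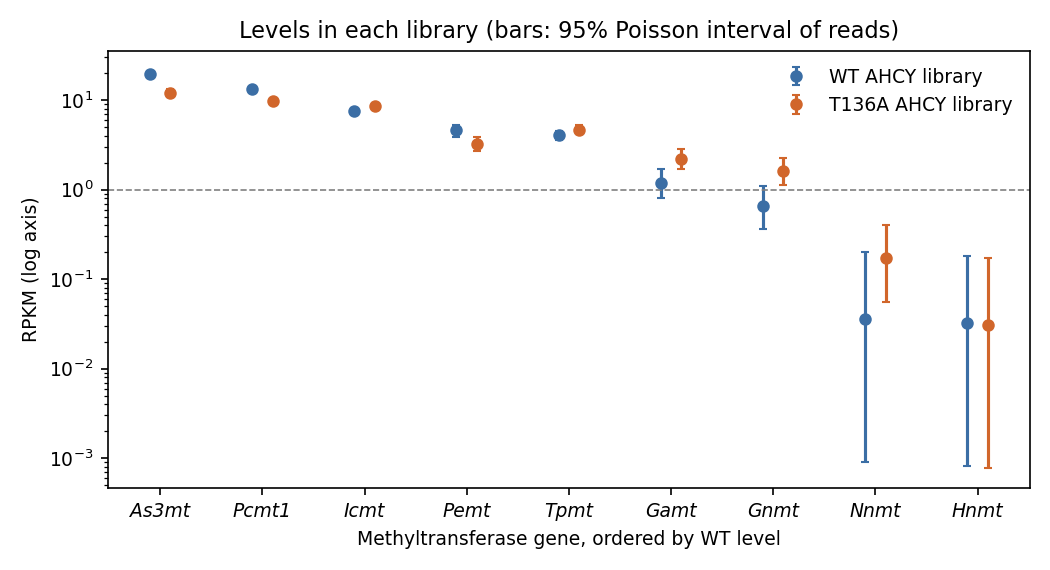
RPKM of the 9 methyltransferase genes (log axis) in the WT library (blue) and the T136A library (orange), ordered by WT level; points are single libraries, bars are 95% Poisson intervals of the reads and the dashed line marks 1 RPKM. As3mt is highest in both libraries, at 19.7 and 12.04 RPKM, while Nnmt and Hnmt lie below 0.2 RPKM in both.

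The protein methyltransferases Pcmt1 and Icmt came next in abundance and differed in opposite directions. Pcmt1 (ENSMUSG00000019795; chromosome 10, 7629373 to 7681136, minus strand) methylates isoaspartyl residues, which arise in ageing proteins, and starts their repair. It was at 13.3 RPKM in WT against 9.67 RPKM in T136A, from 1096 and 839 reads, so that WT was 1.37-fold higher (1.25 to 1.50). Icmt (ENSMUSG00000039662; chromosome 4, 152297227 to 152307121, plus strand) methylates the carboxyl end of prenylated proteins such as the Ras family and the B-type lamins. It stood at 7.52 RPKM in WT against 8.62 RPKM in T136A, from 696 and 838 reads, and T136A was 1.15-fold higher (1.03 to 1.27). Only 1.95% of the annotated exon bases of Icmt are shared with a gene of the other strand, Rnf207, which was below 0.3 RPKM in both libraries. In WT the Pcmt1 and Icmt intervals lay apart, and in T136A those of their levels, 9.02 to 10.3 and 8.04 to 9.22 RPKM, overlapped.

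Pemt and Tpmt were expressed at a few RPKM and exchanged places. Pemt (ENSMUSG00000000301; chromosome 11, 59970614 to 60046489, minus strand) makes phosphatidylcholine from phosphatidylethanolamine. It was at 4.59 RPKM in WT against 3.26 RPKM in T136A, from 169 and 126 reads, 1.41-fold higher in WT (1.11 to 1.79). Tpmt (ENSMUSG00000021376; chromosome 13, 47022482 to 47044737, minus strand) methylates thiopurine drugs. It stood at 4.03 RPKM in WT against 4.69 RPKM in T136A, from 260 and 318 reads. The T136A to WT ratio of Tpmt was 1.16, and its interval, 0.985 to 1.38, included 1. Opposite to 17.4% of the Tpmt exon bases lies the annotated gene Gm18807, and since no strand rule for the counting is given, reads of the pair cannot be told apart. In WT the level intervals of Pemt and Tpmt overlapped, and in T136A Tpmt (4.19 to 5.24 RPKM) lay above Pemt (2.71 to 3.88 RPKM).

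The lowest of the transcripts above 1 RPKM, Gamt and Gnmt, had the highest ratios. Gamt (ENSMUSG00000020150; chromosome 10, 80258151 to 80261012, minus strand) carries out the last step of creatine synthesis. It was at 1.19 RPKM in WT against 2.22 RPKM in T136A, from 30 and 59 reads, 1.87-fold higher in T136A (1.19 to 3.01). Gnmt (ENSMUSG00000002769; chromosome 17, 46725664 to 46729168, minus strand) methylates glycine to sarcosine and buffers the supply of S-adenosylmethionine. It stood at 0.663 RPKM in WT against 1.62 RPKM in T136A, from 14 and 36 reads, 2.45-fold higher in T136A (1.29 to 4.91). Gnmt thus passed the minimum of 1 RPKM through T136A alone. The few reads leave a wide range for both folds, and both intervals include 2. Within each library the level intervals of Gamt and Gnmt overlapped.

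Markers of other cell types also differed between the libraries, at low levels. Over all genes at or above 1 RPKM, 47.4% had a log2 ratio above 0. That share leaves out genes below 1 RPKM. The level was reached by 4 of 8 primitive endoderm, 2 of 7 matched fibroblast and 0 of 5 matched liver markers. All 8 primitive endoderm markers had a higher value in T136A, with a summed level of 4.40 RPKM in WT against 8.02 RPKM in T136A. The highest of them, Dab2, reached 2.07 RPKM, and Afp was at 0 in WT. The counting interval of the fold lay above 1 for 3 of the 8 and included 1 for Foxa2 and Sox7. It could not be given for Gata4, Gata6 and Sox17. Gata6 and Sox17 passed 1 RPKM through T136A alone. Of 6 liver markers 5 were matched, 3 of them higher in T136A, 1 lower and 1, Serpina1a, at 0 in both, and their sums were 0.880 and 1.52 RPKM. All 7 matched markers of fibroblast feeder cells, of 10 listed, were higher in T136A, with sums of 4.88 and 8.53 RPKM and with Postn and Acta2 at 0 in WT. Their part in the Gamt and Gnmt values was not tested. Markers of embryonic stem cells, the labelled cell type, were high in both libraries. The 8 of them lay between 35.5 and 2182 RPKM. In T136A 7 were lower, with plain T136A to WT ratios of 0.711 to 0.923, and Zfp42 was 1.58-fold higher.

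Nnmt and Hnmt were barely detected. Nnmt (ENSMUSG00000032271; chromosome 9, 48591877 to 48605153, minus strand), which methylates nicotinamide, had 1 read in WT and 5 in T136A, or 0.0362 and 0.172 RPKM. The ratio of 4.76 had an interval from 0.532 to 225, so no difference was detectable at this depth. Hnmt (ENSMUSG00000026986; chromosome 2, 24002910 to 24049394, minus strand), which inactivates histamine, had 1 read in each library, 0.0323 and 0.0307 RPKM. Neither entered the counts or the median given below.

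**Figure D2:**
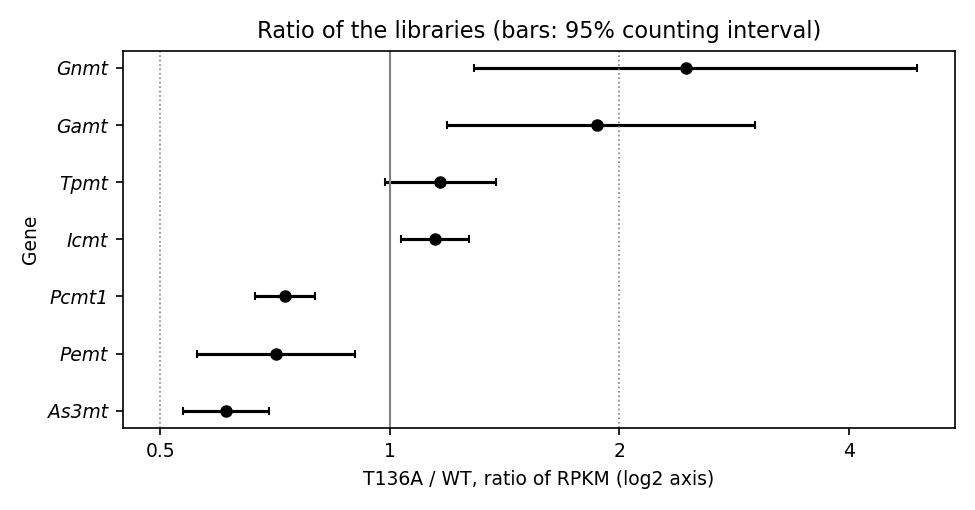
T136A to WT ratio of RPKM (log2 axis) of the 7 genes at or above 1 RPKM; points are ratios of the single libraries, bars are 95% counting intervals, and dotted lines mark 2-fold differences. As3mt, Pemt and Pcmt1 lie below 1 with their whole interval, Icmt, Gamt and Gnmt above it, and the interval of Tpmt (0.985 to 1.38) includes 1.

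As a set the 7 genes that reached 1 RPKM did not move one way. On the log2 scale with 1 RPKM added, 0 were at least 2-fold higher and 0 at least 2-fold lower in T136A, where over all 12320 genes 3.13% were higher and 3.10% lower. In plain RPKM, 1 of the 7, Gnmt, was at least 2-fold higher and 0 were lower, against 6.30% and 6.36% of all genes. With 0.1 RPKM added in place of 1, Gnmt was also called, with 5.87% of all genes higher and 5.90% lower. Log2 ratios were above 0 for Gnmt (0.66), Gamt (0.56), Tpmt (0.18) and Icmt (0.17), and below 0 for Pemt (-0.39), Pcmt1 (-0.42) and As3mt (-0.67). Their median was 0.17, against -0.03 over all genes, whose central 68% ran from -0.47 to 0.44. With a minimum of 5 RPKM only As3mt, Pcmt1 and Icmt were left, and the median was -0.42. Higher values than that of Gnmt were found for 8.32% of genes. The counting interval of the fold lay above 1 for 3 of the 7 and below 1 for 3. For As3mt, 1 of those below, it rests on the smallest pair of whole reads, and with recovered reads only 2 lay below. Among 10771 genes with recovered reads, which leave As3mt out, the shares were 31.7% and 36.9%. Intervals that exclude 1 were thus common among genes in general.

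**Figure D3:**
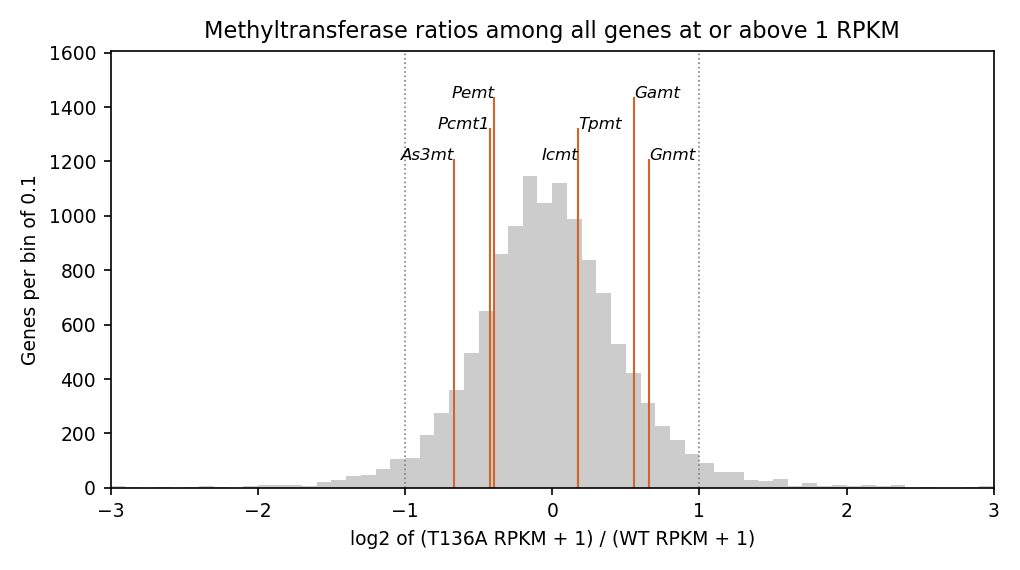
Number of genes per bin of 0.1 of the log2 ratio (T136A over WT, 1 RPKM added to each) for the 12320 genes at or above 1 RPKM, with ratios beyond 3 in the end bins; orange lines mark the 7 methyltransferase genes and dotted lines 2-fold differences. From As3mt at -0.67 to Gnmt at 0.66, all 7 lie between the dotted lines.

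Summed over the 9 genes, the level was 51.1 RPKM in WT against 42.3 RPKM in T136A. As3mt was 7.69 RPKM lower in T136A, and the sum was 8.74 RPKM lower. Without As3mt the sums were 31.3 and 30.3 RPKM. As3mt made up 38.6% of the summed level in WT and 28.5% in T136A, while As3mt, Pcmt1 and Icmt together made up 79.4% and 71.7%.

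The genes around Gamt and Gnmt in their pathways were next compared, with lists written by pathway. Among the 12320 genes at or above 1 RPKM, 3.13% were called higher, 3.10% lower, and 47.4% had a log2 ratio above 0. In creatine synthesis and use, 4 of 5 matched genes reached 1 RPKM, 0 were called in either direction, and all 4 had ratios above 0 with a median of 0.29. Gatm, which makes the guanidinoacetate that Gamt methylates, was at 1.33 RPKM in WT against 3.35 RPKM in T136A, a plain fold of 2.51 (1.90 to 3.36). Mitochondrial creatine kinase, Ckmt1, had the lowest ratio of the list, 0.08. Both genes of creatine synthesis thus had low levels that were higher in the T136A library. In sarcosine and dimethylglycine breakdown with electron transfer, 3 of 6 matched genes reached 1 RPKM, 1 was at least 2-fold higher and 0 lower. Their median of 0.19 was 0.11 with no minimum level and 0.65 with a minimum of 5 RPKM. The called gene was Pipox, an oxidase that breaks down sarcosine, at 8.28 RPKM in WT against 19.0 RPKM in T136A. Etfdh had the lowest ratio, 0.02. Sardh, the mitochondrial enzyme of the same step, was below 0.06 RPKM in both libraries.

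For the lipid and prenyl pathways of Pemt and Icmt the ratios spread to both sides. All 15 genes of phosphatidylcholine synthesis and choline supply reached 1 RPKM, 1 was at least 2-fold higher, 0 lower, and the median was -0.20. The called gene, the ethanolamine kinase Etnk2, was at 0.463 RPKM in WT against 2.54 RPKM in T136A, so it passed the minimum through T136A alone. Choline kinase beta, Chkb, had the lowest ratio, -0.60, at 3.95 and 2.27 RPKM. Of 24 genes of prenylation and its substrates 23 reached 1 RPKM, 0 were called in either direction, and the median was 0.02. Nras, a substrate of Icmt, was lowest at 30.6 RPKM in WT against 16.2 RPKM in T136A, and Hras, another, was highest at 14.03 and 19.6 RPKM. Rce1, which trims prenylated proteins just before Icmt acts, was at 27.3 RPKM in WT against 18.1 RPKM in T136A, opposite in direction to Icmt.

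Around Pcmt1, 9 of the 10 listed genes of protein ends and repair were matched and reached 1 RPKM, 0 were called, and the median was 0.16. Lcmt1, which methylates the carboxyl end of protein phosphatase 2A, had the highest ratio, at 12.4 RPKM in WT against 20.4 RPKM in T136A. Ppp2cb, a catalytic subunit of that phosphatase, had the lowest, at 77.0 and 57.9 RPKM.

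Genes that handle the substrates of Nnmt, As3mt, Tpmt and Hnmt followed. Of 14 matched genes of nicotinamide and NAD metabolism 12 reached 1 RPKM, 0 were at least 2-fold higher, 1 lower, and the median was 0.06. Naprt, which starts the synthesis of NAD from nicotinic acid, was the called gene, at 11.1 RPKM in WT against 4.14 RPKM in T136A. NAD kinase, Nadk, was highest at 51.8 and 84.8 RPKM. In arsenic handling 5 of 7 genes reached 1 RPKM, 0 were called, and the median was -0.06 (0.04 with upper-quartile scaling), with the lowest ratio for Gsto2, a glutathione transferase (2.80 and 1.26 RPKM), and the highest for thioredoxin reductase, Txnrd1 (24.6 and 39.4 RPKM). Purine salvage and thiopurine genes had 6 of 8 at 1 RPKM, 0 called, and a median of 0.33, from Impdh2 (0.03) to Impdh1 (0.65). In the histamine list 3 of 7 reached 1 RPKM, 0 were called and the median was 0.14, from Aldh2 (0.11) to the transporter Slc29a4 (0.38). Hdc, which makes histamine, was below 0.04 RPKM in both libraries, as was Hnmt.

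**Figure D4:**
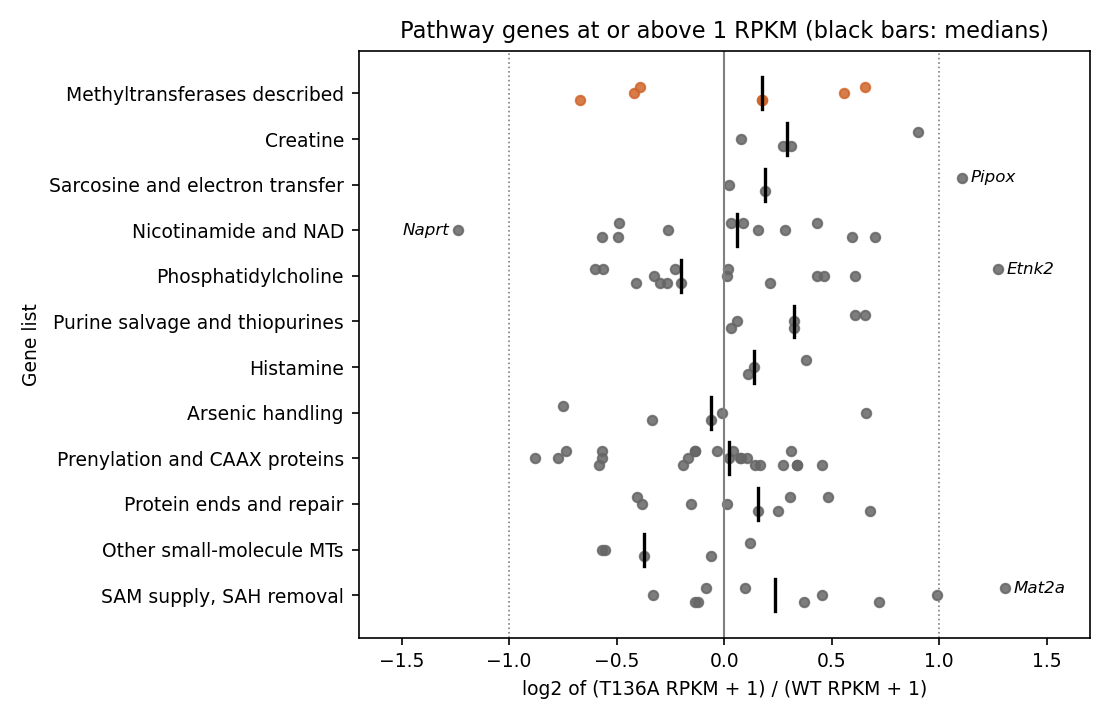
Log2 ratio (T136A over WT, 1 RPKM added to each) of the genes at or above 1 RPKM in each pathway list; each point is 1 gene, black bars are medians, orange points are the 7 methyltransferase genes and dotted lines mark 2-fold differences. The named genes Naprt, Pipox, Etnk2 and Mat2a lie past the dotted lines, and the list medians lie between -0.37 and 0.33.

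Other methyltransferases of small molecules had values on both sides. Of 12 matched genes 5 reached 1 RPKM, 0 were called in either direction, and the median was -0.37, with 4 of the 5 below 0, where 47.4% of all genes were above 0. Over all 12, 4 were higher in T136A, 7 lower and 1 at 0 in both, and with no minimum level the median was -0.064. Coq3, of ubiquinone synthesis, was highest, with 13.8 RPKM in WT against 15.1 RPKM in T136A. Betaine-homocysteine methyltransferase, Bhmt, stayed below 1 RPKM in both libraries, with 17 reads in WT and 95 in T136A.

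The last list held genes of S-adenosylmethionine supply and S-adenosylhomocysteine removal. Of its 11 genes 10 reached 1 RPKM, 1 was at least 2-fold higher and 0 lower, with a median of 0.23. Mat2a, which makes S-adenosylmethionine, was the called gene and stood at 26.6 RPKM in WT against 67.3 RPKM in T136A. Ahcyl2, a relative of Ahcy, had the lowest ratio, -0.33. Ahcy itself was at 52.9 and 56.6 RPKM, above each of the 9 methyltransferase transcripts in both libraries. A gene-level value cannot show the altered codon, so the Ahcy level does not check the labels.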

How the data were processed

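RNA-seq of 2 libraries was analysed, 1 per genotype. The authors made 1 value per Ensembl gene and library before they deposited the files, and these values were read as RPKM, reads scaled by the authors for exon length and library size. No label or header names the unit. It was settled from the values, since value times GENCODE M21 exon length times 1 constant per library was whole (within 0.01) for 89.9% (WT) and 90.0% (T136A) of positive values. Per the submitters' processing notes, CASAVA 1.8 and mm9 were used, with no role given; the aligner, the counter and any strand rule are not stated there. GENCODE M21 and RefSeq describe GRCm38, the build of all printed coordinates.

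Symbols came from the reference's gene names, which matched 25696 of 25749 identifiers; for 9 that shared a symbol, the one with the higher total was kept. Calls, medians and counting intervals were computed with Python 3.11.15 and scipy 1.17.1 and tested on simulated data. The 9 genes and the 11 pathway lists were chosen with earlier results of these data known. Named pathway genes are those called plus the highest and lowest ratio of each list, of which 1 is not reported here; Rce1, Sardh, Hdc, Bhmt, Rnf207, Gm18807, Dab2, Afp, Serpina1a, Postn, Acta2, Mat1a, Hnf4a, Hprt, Fdps, Etfb, Dmgdh, Alb, Apoa1, Ttr and Etfa were singled out after their values were seen.

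Alternatives were other added constants (0.1 and 5 RPKM), other minimum levels, 4 scalings and summed values for shared symbols. DESeq2 and edgeR were not used, since 1 library per genotype gives no estimate of spread.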

Additional observations from a re-analysis of the deposited data

How the results depend on the processing

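No alternative turned the sign of a ratio among the 7 methyltransferase genes at or above 1 RPKM. Hnmt, with 1 read in each library, was the exception below that level. With 0.1 RPKM added, 1 of the 7 genes, Gnmt, was at least 2-fold higher; over all genes 723 were then higher and 727 lower, and with 5 RPKM added 101 and 114. Raising the minimum to 5 RPKM left 209 higher genes; As3mt, Pcmt1 and Icmt were the methyltransferases left, and their median was -0.42. Upper-quartile scaling moved the median of all genes to 0.10, gave 587 higher and 276 lower genes, and put Pcmt1 at -0.28, As3mt at -0.53 and the prenylation list's median at 0.17. With 5 RPKM added the histamine list's median was 0.11. The other 151 of 160 values of counts and medians stayed within their limits (1.5 times for counts, the order-statistic interval for medians). That interval is wide for short lists, and medians within it still moved by more than 1.5 times or changed sign. The median of the methyltransferases described changed sign within it, from 0.17 to -0.42 with a minimum of 5 RPKM. So did that of arsenic handling, from -0.06 to 0.04 with upper-quartile scaling. Large moves were also seen for sarcosine breakdown (0.11 to 0.65) and the other small-molecule methyltransferases (-0.064 with no minimum). Upper-quartile scaling moved several more medians, among them nicotinamide and NAD (0.06 to 0.19) and phosphatidylcholine (-0.20 to -0.09). It also moved histamine (0.14 to 0.28), protein ends and repair (0.16 to 0.30) and the methyltransferases described (0.17 to 0.31). For Gnmt, Gamt and Nnmt the read number limits the precision. No paired analysis was possible because each genotype has 1 library. A 2 closes both column names without explanation, and it could pair only these 2 libraries.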

Other observations

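Several genes of methyl-group metabolism that are typical of liver stood below 1 RPKM in both libraries and had more reads in T136A. Mat1a, the liver form of the enzyme that makes S-adenosylmethionine, had 1 read in WT and 23 in T136A. The 95% counting interval of its fold ran from 3.55 to 902, so its size is poorly known. Bhmt had a plain fold of 5.32 (95% counting interval 3.15 to 9.51), from 0.169 and 0.897 RPKM. Dmgdh, which breaks down dimethylglycine, had 20 and 44 reads, with an interval of 1.21 to 3.75. Other genes of this kind did not follow as clearly. Sardh had 4 and 5 reads and Bhmt2 had 20 and 32, and both intervals included 1, while Pemt was lower in T136A. Of the 10771 genes at or above 1 RPKM with recovered reads, 31.7% had an interval above 1. That share does not cover genes below 1 RPKM. Among the 5 matched liver markers, the factor Hnf4a had 12 and 60 reads, with an interval of 2.53 to 9.72. Alb, the gene of serum albumin, had 15 and 23 reads, a fold of 1.46 with an interval (0.729 to 3.01) that includes 1. Apoa1 had 4 and 5 reads, Ttr was lower in T136A (0.187 and 0.0892 RPKM), and Serpina1a was at 0 in both libraries.

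A few genes that most cells use had low values in both libraries. Hprt, which salvages purines and activates thiopurines, was at 0.355 RPKM in WT against 0.801 RPKM in T136A. Fdps, of isoprenoid synthesis, was at 0.122 and 0.194 RPKM, and Etfb, of mitochondrial electron transfer, at 0.638 and 0.280 RPKM, while its partner Etfa was at 63.4 and 72.3 RPKM. The cause was not tested.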
